A study of Homo sapiens with 4 samples.

Results

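The genes that make, cut and bind hyaluronan were followed in HaCaT, an immortalised human keratinocyte line, after treatment with M5, a mix of 5 inflammatory cytokines. They were chosen by name as the 3 hyaluronan synthases HAS1, HAS2 and HAS3, and the hyaluronidases HYAL1, HYAL2 and HYAL3. The others were CEMIP, which depolymerises hyaluronan, the CEMIP relative CEMIP2, the receptor CD44 and the secreted binder TNFAIP6. Of these 10 genes, 8 have a row among the 27356 genes of the tables used here. HAS1 and TNFAIP6 have none, by symbol or by Ensembl identifier. Since every listed gene had at least 1 count over the 4 libraries, the 2 genes without a row may have had no counted read, and this was not tested.

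Polyadenylated RNA was sequenced from 2 libraries of cells given phosphate-buffered saline (PBS) and 2 libraries of cells given M5, harvested 72 h after addition at a plating density of 50%. M5 held IL-1α, IL-17, IL-22, TNF-α and Oncostatin M at 10 μg/L each. On the 2 M5 libraries the treatment tag reads DAC at 25 μM, an abbreviation left unexplained, while titles, protocol and series description give M5; grouping used the titles. All libraries come from 1 cell line. Nothing in the labels tells separate cultures from repeat libraries of a culture, so the spread behind each p-value may be technical only. Totals ran from 15858644 to 16051974 counts in PBS and from 18992988 to 19749612 in M5.

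The keratinocyte markers KRT5, KRT14, TP63, SFN, DSP and PERP were all present, with a summed level of 3009 to 3332 FPKM (counts scaled to library size and to gene length). Within this sum KRT5 was lower in M5, by -0.96 in log2 units (edgeR adjusted p = 9.11e-12), KRT14, TP63, SFN and PERP were called higher, and DSP was not called. Of 6 fibroblast markers 4 had a row, with a summed level of 0.428 to 0.667 FPKM over all libraries. Of 4 melanocyte markers 3 had a row, summing to 0.455 to 0.731 FPKM. All 3 endothelial markers had a row, summing to 0.281 FPKM in both PBS libraries and to 0.436 and 0.623 FPKM in M5. In the fit without a filter CDH5 was higher in M5 (15 and 20 against 48 and 74 counts, edgeR adjusted p = 0.0031) and VWF lower (19 and 11 against 3 and 0 counts, edgeR adjusted p = 0.0223), while PECAM1 had 1 count in each PBS library and 0 in M5. Of 6 leukocyte markers only CD3E and CD14 had a row, summing to 1.55 and 2.35 FPKM in PBS and to 4.66 and 5.12 FPKM in M5, while the defining leukocyte gene PTPRC had none. Nearly all of this sum was CD14, with 60 and 41 counts in PBS and 145 and 166 in M5 (called higher, edgeR adjusted p = 1.9e-05). CD3E had at most 2 counts in a library. The part of the endothelial and leukocyte markers in the results below was not tested. In RNA pooled from many cells, a change in the number of expressing cells and a change in RNA per cell cannot be told apart.

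Hyaluronan is a long unsulfated glycosaminoglycan of alternating glucuronic acid and N-acetylglucosamine. It is spun out through the plasma membrane by the HAS enzymes from UDP-sugars, and in the epidermis it fills the narrow spaces between keratinocytes. It turns over rapidly. CEMIP depolymerises it outside the cell, and CEMIP2 is reported to do so at the cell surface. The HYAL enzymes act at the surface or in lysosomes, and CD44 is the main keratinocyte receptor that holds and internalises it.

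With M5, CEMIP and HAS2 showed the largest rises among the 8 genes, 15.98-fold and 14.35-fold, and HAS3, CEMIP2 and CD44 rose by smaller factors. HYAL3 passed the test at a low level that depended on the processing, and HYAL1 and HYAL2 did not pass. All 8 genes met the filter of a mean of at least 1 FPKM over the 4 libraries, and 6 of them changed, all higher in M5 (edgeR quasi-likelihood test, Benjamini-Hochberg adjusted p under 0.05 over 10809 tested genes). Among all tested genes 55.9% changed in either direction, and 28.8% were higher and 27.1% lower. A called rise of at least 2-fold was found for HAS2, HAS3 and CEMIP, and for 6.48% of all tested genes. HAS3 fell just below 2-fold in some of the alternative fits described below. The median log2 fold change of the 8 genes was 0.78, against -0.01 for all tested genes. Without the TMM scaling of library totals, 6 genes also changed, 5 higher and 1 lower, but they were not the same 6. HYAL3 lost its call, HYAL2 was called lower, and the median of all tested genes was -0.16.

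**Figure D1:**
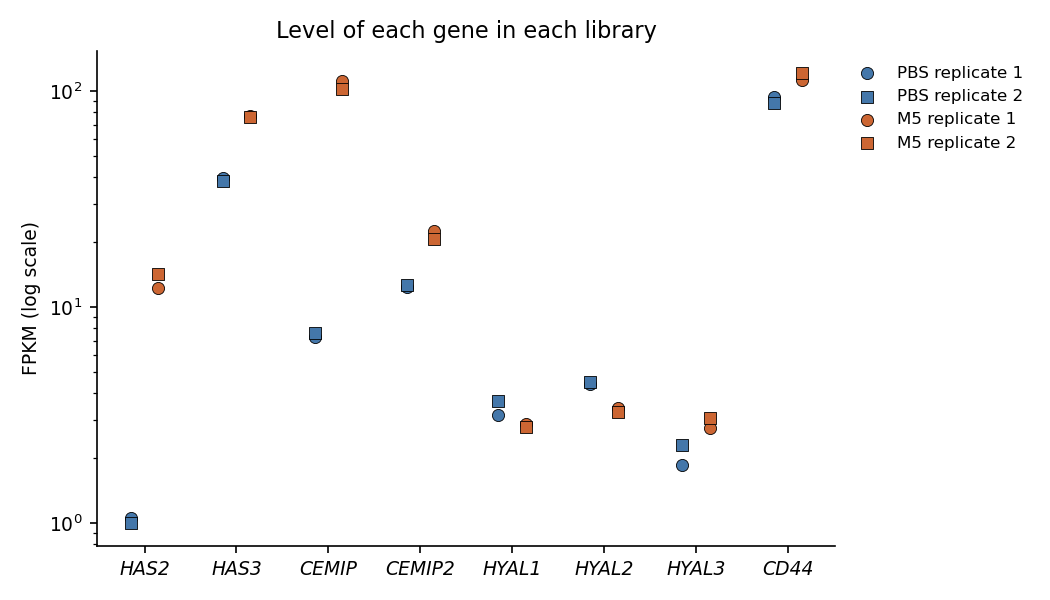
Level of each of the 8 genes with a row, as deposited FPKM on a log axis, 1 point per library, blue for PBS and orange for M5. The M5 points of HAS2, HAS3, CEMIP, CEMIP2, HYAL3 and CD44 lie above both PBS points, and those of HYAL1 and HYAL2 lie below them.

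**Figure D2:**
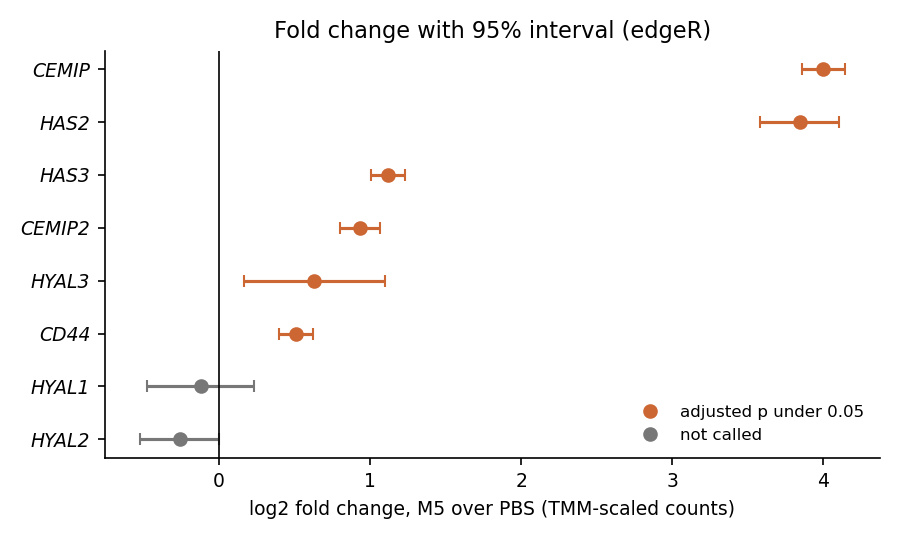
Log2 fold change of M5 over PBS for each gene from TMM-scaled counts, with its 95% interval from the edgeR fit, 2 libraries per group. The intervals of HYAL1 and HYAL2 include 0, and those of CEMIP and HAS2 lie above 3.5.

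HAS2 is the inducible synthase of fibroblasts and of wounded or growth factor-stimulated keratinocytes (ENSG00000170961, GRCh38 chromosome 8, 121612116 to 121641390, minus strand). It had 71 and 68 counts in the PBS libraries and 994 and 1193 in the M5 libraries, or 1.06 and 0.999 FPKM against 12.3 and 14.2 FPKM. Every M5 library was above every PBS library by a wide margin, and the replicates of each group lay close together. Scaled by TMM, its level rose from 4.13 ± 0.158 to 59.4 ± 5.78 CPM (counts scaled to the library total, SD, n = 2), which is 3.84 in log2 units with an SE of 0.12 (edgeR adjusted p = 4.25e-15). With limma on log2(FPKM + 1), where the offset compresses low levels, the log2 value was 2.81. By level HAS2 stood at place 10490 of 10809 tested genes in PBS and at place 3214 in M5.

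HAS3, the synthase that dominates in keratinocytes and makes chains of lower mass (ENSG00000103044, chromosome 16, 69105564 to 69118719, plus strand), had 39.7 and 38.4 FPKM in PBS and 76.7 and 76.1 FPKM in M5. Its groups were far apart compared with the spread inside them. It rose from 193 ± 4.27 to 419 ± 4.13 CPM, which is 1.12 in log2 units with an SE of 0.05 (edgeR adjusted p = 2.26e-12), 2.17-fold. The log2 value was 0.97 with library totals in place of TMM and 0.93 with limma on log2(TPM + 1), both just below 2-fold.

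On the FPKM scale, which allows levels of different genes to be compared, HAS3 exceeded HAS2 in every library. The ratio of HAS3 to HAS2 was 37.6 and 38.5 in PBS and 6.21 and 5.34 in M5. HAS2 thus made up 2.59% and 2.53% of the summed synthase FPKM in PBS and 13.9% and 15.8% in M5. The summed level of both synthases was 40.8 and 39.4 FPKM in PBS and 89.0 and 90.3 FPKM in M5. The larger factor belonged to HAS2, and most of the added synthase FPKM to HAS3.

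HAS2 shares 201 exonic bases with its antisense RNA HAS2-AS1 on the opposite strand, and the library kit does not mark strand. HAS2-AS1 had 7 and 8 counts in PBS and 19 and 14 in M5. Its log2 value in a fit without a filter was 1.03 (SE 0.50, edgeR adjusted p = 0.212), so no change was called. HAS3 shares 365 exonic bases with the opposite-strand gene CHTF8, which had 8 and 14 counts in PBS and 17 in each M5 library. How reads from the shared bases were assigned is not given, so these counts do not measure the partners' part in HAS2 and HAS3. That part was not tested.

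CEMIP, also known as HYBID, binds hyaluronan and is needed for its breakdown outside the cell (ENSG00000103888, chromosome 15, 80779343 to 80951776, plus strand). It had 881 and 930 counts in PBS and 16170 and 15439 in M5, or 7.29 and 7.60 FPKM against 112 and 103 FPKM. Both M5 libraries lay more than 10-fold above both PBS libraries. It rose from 53.9 ± 1.64 to 861 ± 55.3 CPM, which is 4.00 in log2 units with an SE of 0.07 (edgeR adjusted p = 1.56e-19). By fold change it stood at place 89 and HAS2 at place 93 of 10809, and by level CEMIP moved from place 5251 to place 287. CEMIP shares 224 exonic bases with MESD on the opposite strand, a chaperone gene with 1821 and 1874 counts in PBS and 2038 and 2125 in M5, whose log2 value of 0.04 did not pass (edgeR adjusted p = 0.555).

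CEMIP2 is a transmembrane relative of CEMIP (ENSG00000135048, chromosome 9, 71683366 to 71816690, minus strand). It is reported to cut hyaluronan at the cell surface, but its own enzyme activity is uncertain. CEMIP2 had 12.4 and 12.7 FPKM in PBS and 22.5 and 20.6 FPKM in M5. The groups did not overlap. It rose from 110 ± 2.00 to 210 ± 13.8 CPM, which is 0.93 in log2 units with an SE of 0.06 (edgeR adjusted p = 2.09e-10), 1.91-fold. The order of the pair by level turned over: the ratio of CEMIP to CEMIP2 FPKM was 0.588 and 0.599 in PBS and 4.96 and 4.97 in M5.

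The sequences before the RefSeq start sites are shown for CEMIP and HAS3, as a member that rose strongly from a middle level and one that rose from a high level. GENCODE starts HAS3 earlier, at 69105564, so the printed HAS3 stretch lies inside that gene, outside its exons. They are from RefSeq on GRCh38.p14, read along each gene's plus strand, and end just before or close to the start site. Capitals mark a match to TATAAA. Windows of 9 of the 10 genes were used, and HAS2 is not among them.
CEMIP, chr15:80779120-80779345: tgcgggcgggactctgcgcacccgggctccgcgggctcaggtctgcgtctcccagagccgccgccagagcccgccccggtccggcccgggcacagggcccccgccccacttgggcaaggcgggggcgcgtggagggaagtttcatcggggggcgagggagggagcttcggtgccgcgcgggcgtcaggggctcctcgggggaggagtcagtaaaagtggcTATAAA
HAS3, chr16:69107290-69107539: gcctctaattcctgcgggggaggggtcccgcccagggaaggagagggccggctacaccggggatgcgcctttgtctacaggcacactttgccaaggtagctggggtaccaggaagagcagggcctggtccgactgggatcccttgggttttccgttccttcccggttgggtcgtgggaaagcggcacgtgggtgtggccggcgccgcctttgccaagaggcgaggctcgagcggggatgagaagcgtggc

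Windows of 250 bases before each RefSeq start site were searched on both strands for TATAAA, the AP-1 motif TGANTCA, the STAT motif TTCNNNGAA and the NF-kB consensus, each independently of overlap with the others. The CEMIP window held TATAAA at 30 to 25 bases before the RefSeq start site at 80779370, and 3 bases of the printed stretch lie inside an exon that GENCODE starts earlier. TATAAA occurred in 10.7% of 35116 windows of the same length before RefSeq start sites, the AP-1 and STAT motifs in 6.57% each, and the NF-kB consensus in 5.21%. Besides CEMIP, TNFAIP6 held an AP-1 match at 129 to 123 bases before its start, and 1 of the 2 HYAL3 windows an NF-kB match at 51 to 42 bases. The windows of HAS1, HAS3, HYAL1, HYAL2, CEMIP2 and CD44 held none of the 4 motifs, which says only that these letters are not in these windows. Those of HAS3 and HYAL1 lie inside the genes as GENCODE places them. The whole CD44 and CEMIP2 windows, and the HYAL3 window with the NF-kB match, lie inside exons annotated by GENCODE and are not shown.

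The 3 hyaluronidase genes lie side by side on the minus strand of chromosome 3 and were expressed at low levels. HYAL2, a GPI-anchored surface hyaluronidase (ENSG00000068001, 50317790 to 50322906), had 309 and 319 counts in PBS and 287 and 286 in M5, or 4.41 and 4.50 FPKM against 3.42 and 3.28 FPKM. Its M5 libraries were both below its PBS libraries, by a margin that the test did not call: the log2 value was -0.26 (95% interval -0.52 to 0.00, edgeR adjusted p = 0.084). With library totals in place of TMM the value was -0.41 and passed as lower (edgeR adjusted p = 0.0079), and on log2(FPKM + 1) it was -0.33 (limma adjusted p = 0.00982). HYAL2 shares 509 exonic bases with TUSC2 on the same strand, which had 261 and 319 counts in PBS and 425 and 421 in M5 and rose by 0.42 on the log2 scale (edgeR adjusted p = 0.00699).

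HYAL1, a lysosomal hyaluronidase (ENSG00000114378, 50299889 to 50312381), had 155 and 182 counts in PBS and 169 and 170 in M5. Scaled by TMM its groups overlapped, at 9.27 and 10.8 CPM in PBS and 9.40 and 9.05 CPM in M5. Its log2 value was -0.12 (edgeR adjusted p = 0.573), with a 95% interval from -0.47 to 0.23, so a fall to 0.72-fold and a rise to 1.18-fold both lie within the error.

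HYAL3, whose own enzyme activity is uncertain (ENSG00000186792, 50292831 to 50299468), had 58 and 73 counts in PBS and 103 and 119 in M5, or 1.86 and 2.31 FPKM against 2.76 and 3.06 FPKM. The M5 libraries were both higher, with a log2 value of 0.63 (SE 0.22, 95% interval 0.16 to 1.10, edgeR adjusted p = 0.0215). The call was lost without PBS replicate 1 (0.48, edgeR adjusted p = 0.165), without M5 replicate 2 (0.56, edgeR adjusted p = 0.0842), with library totals (0.48, edgeR adjusted p = 0.0694), without a filter (0.66, edgeR adjusted p = 0.0515) and in DESeq2 (0.64, adjusted p = 0.0773). HYAL3 shares 248 exonic bases with NAA80, a gene for an actin-modifying acetyltransferase on the same strand, and 43 with IFRD2. NAA80 went the other way, with 64 and 71 counts in PBS and 43 and 58 in M5 and a log2 value of -0.55 that did not pass (edgeR adjusted p = 0.0795). With 1 library left out, the lone library of that group is assumed to vary like the other group, which alone supplies the spread. When the counts of HYAL3 and NAA80 were summed, an alternative chosen after the values were seen, the log2 value was 0.15 (SE 0.18, edgeR adjusted p = 0.509).

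**Figure D3:**
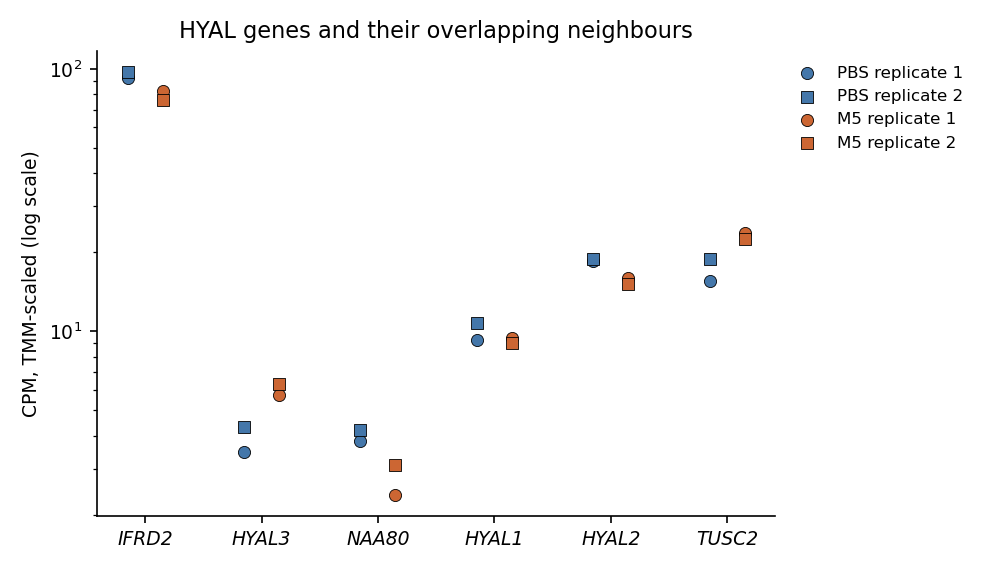
TMM-scaled CPM on a log axis for the HYAL genes and the neighbours that share exonic bases with them, in the order of their positions on chromosome 3, 1 point per library. HYAL3 points are higher in M5 and those of its overlapping neighbour NAA80 lower, and the groups of HYAL1 overlap.

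Among the 5 genes grouped here as cleavage genes, the summed level was 29.1 and 30.8 FPKM in PBS and 143 and 132 FPKM in M5. CEMIP supplied 25.0% and 24.7% of it in PBS and 78.0% and 77.5% in M5. CEMIP2 supplied the largest share in PBS, 42.6% and 41.3%, and 15.7% and 15.6% in M5. The 3 HYAL genes each supplied at most 15.1% in PBS and at most 2.48% in M5. In PBS the order by FPKM was CEMIP2, CEMIP, HYAL2, HYAL1 and HYAL3, with no overlap between neighbours. In M5 it was CEMIP, CEMIP2, HYAL2 and then HYAL3 and HYAL1, and the last pair could not be ordered because their libraries overlap (2.76 and 3.06 against 2.88 and 2.79 FPKM).

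**Figure D4:**
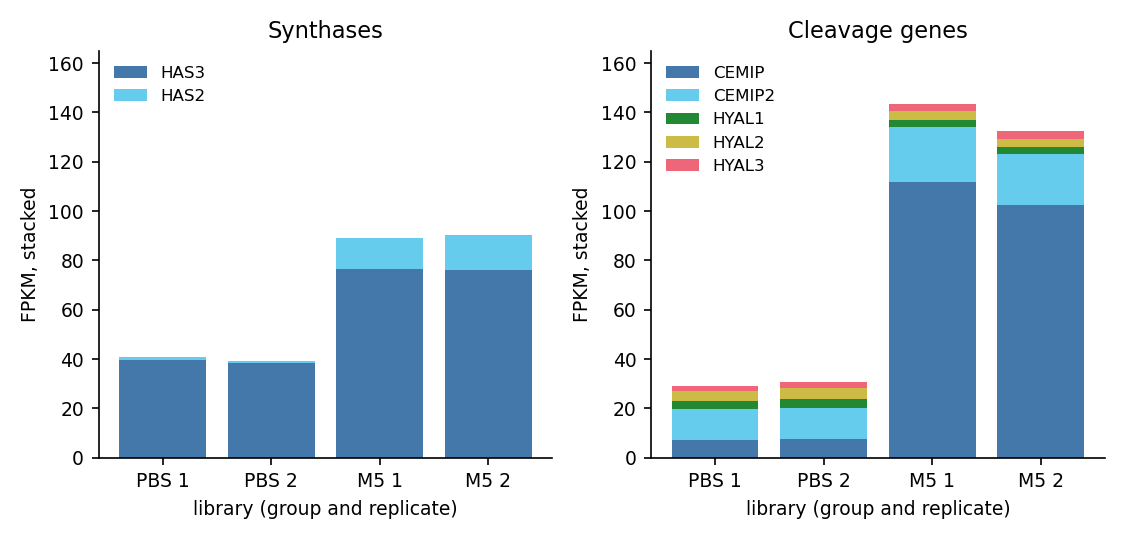
Stacked FPKM of the synthases (left) and of the cleavage genes (right) in each of the 4 libraries. Both sums are higher in M5, with HAS3 as the main synthase throughout and CEMIP at 78.0% and 77.5% of the cleavage sum in M5.

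CD44, the receptor for hyaluronan (ENSG00000026508, chromosome 11, 35138870 to 35232402, plus strand), was the most abundant of the 8 genes in every library. It had 14966 and 14196 counts in PBS and 21495 and 23928 in M5, or 94.4 and 88.5 FPKM against 113 and 121 FPKM. The groups did not overlap, and their distance was several times the spread inside them. It rose from 867 ± 39.1 to 1235 ± 54.5 CPM, which is 0.51 in log2 units with an SE of 0.05 (edgeR adjusted p = 1.88e-07), 1.42-fold. The value was 0.36 with library totals and 0.33 on log2(TPM + 1), and passed in each of the 15 alternatives. CEMIP came close to CD44 in level: the ratio of CD44 to CEMIP FPKM was 13.0 and 11.6 in PBS and 1.01 and 1.18 in M5. The deposited values are sums over all CD44 transcripts, so its variant exons were not analysed here. CD44 shares 84 exonic bases with CD44-AS1, which had 32 and 30 counts in PBS and 40 and 39 in M5 and did not pass (log2 value 0.22, edgeR adjusted p = 0.572).

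Beyond these genes, 59 genes of 8 groups around hyaluronan were listed, of which 31 were tested. Of these 16 rose and 3 fell, 61.3% against the background of 55.9%, and their median log2 fold change was 0.20 against -0.01 for all tested genes. With library totals 15 were higher and 7 lower. With a mean FPKM of at least 5 as the filter, 14 were higher and 5 lower.

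Of 7 tested enzymes that make the UDP-sugars used by the synthases, 5 rose and none fell, with a median of 0.43. That is 71.4% changed, against 55.9% of all tested genes changed and 28.8% higher. With library totals 4 rose and PGM1 fell. UAP1, which makes UDP-N-acetylglucosamine and was the most abundant of the group, went from 21.3 to 43.5 mean FPKM, which is 1.18 in log2 units with an SE of 0.06 (edgeR adjusted p = 6.48e-12). PGM3 rose by 0.83 (SE 0.08) and GFPT1, the entry enzyme of the hexosamine pathway, by 0.79 (SE 0.06). UGDH, which oxidises UDP-glucose to UDP-glucuronic acid, rose by 0.43 (SE 0.08, edgeR adjusted p = 0.000132). UGP2, which makes UDP-glucose, rose by 0.20, a call lost with library totals, in every limma fit and without PBS replicate 1 (adjusted p up to 0.799). GNPNAT1 had a log2 value of 0.02 and PGM1 of -0.10. GFPT2, the other entry enzyme, named after its values were seen, had 3 and 4 counts in PBS and 6 and 15 in M5 and was not tested.

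GUSB, the β-glucuronidase that helps take hyaluronan fragments apart in lysosomes, did not pass, at -0.23 in log2 units (edgeR adjusted p = 0.0534). It passed as lower in 9 of its 15 alternatives, library totals and the replicate block among them.

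Among the other receptors, HMMR, a hyaluronan-binding protein that also acts at the mitotic spindle, was the only one tested. It had 1447 and 1471 counts in PBS and 957 and 950 in M5 and fell by 0.74 on the log2 scale (SE 0.07, edgeR adjusted p = 1.33e-08). The remaining genes of this group are named after their values were seen. LYVE1, the lymphatic receptor, had 1 count in all. TLR2, LAYN and TLR4 had between 9 and 59 counts per library and were not called without a filter, nor was HYAL4, a relative of the hyaluronidases, with 6 and 19 counts in PBS and 4 and 2 in M5. STAB2, a scavenger receptor, had 28 and 23 counts in PBS and 10 and 6 in M5 and was called lower without a filter (log2 value -1.76, edgeR adjusted p = 0.0154).

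Of 15 matrix proteins that bind hyaluronan, 9 had a row and only HAPLN3 was tested. HAPLN3, a link protein, had 55 and 48 counts in PBS and 267 and 256 in M5 and rose by 2.21 on the log2 scale (SE 0.19, edgeR adjusted p = 1.11e-08), or by 1.34 on the log2(FPKM + 1) scale. It met the filter only through its level in M5 (mean 0.926 FPKM in PBS and 3.87 in M5), so its place as the 1 tested gene of the group is not independent of its rise. The others are again named after their values were seen. VCAN, ACAN and NCAN, large hyaluronan-binding proteoglycans, had 1 count each over the 4 libraries. PTX3, which binds the complex of hyaluronan and TNFAIP6, had 4 counts in 1 PBS library and none in the others. BCAN, a related proteoglycan, had 11 counts in each PBS library and 25 and 35 in M5 and was called higher without a filter (edgeR adjusted p = 0.0309).

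Of 4 tested genes listed as linkers of CD44 to actin, 1 rose and 1 fell. Of 3 sheddases 1 rose, and of 2 splicing factors 1 rose and 1 fell, beside the background of 55.9% changed. MSN, which encodes moesin, an actin linker of the CD44 tail, had 9700 and 9810 counts in PBS and 21929 and 21895 in M5 and rose by 1.04 (SE 0.05, edgeR adjusted p = 3.07e-12). Its relative EZR, ezrin, the most abundant of the linkers, fell by 0.26 (SE 0.05, edgeR adjusted p = 0.000424). The relative RDX did not pass, nor did NF2, also listed in this group. NF2 passed as lower with library totals and on log2(TPM + 1). ANK3, which encodes an ankyrin and is named after its values were seen, had 309 and 349 counts in PBS and 235 and 172 in M5 and was called lower without a filter (edgeR adjusted p = 0.00515). Of 3 proteases that shed CD44, MMP14, a membrane metalloprotease, rose from 83.0 to 234 mean FPKM, which is 1.65 in log2 units with an SE of 0.06 (edgeR adjusted p = 9.15e-15). ADAM10 (-0.12) and ADAM17 (0.14) did not pass. ADAM10 passed as lower in 7 of 15 alternatives, library totals among them, and the value of ADAM17 turned negative with library totals and in every limma fit. Of the splicing factors that keep epithelial CD44 variants, ESRP2 rose by 0.61 (SE 0.06, edgeR adjusted p = 7.71e-08). ESRP1 fell by 0.16 (edgeR adjusted p = 0.021), a call lost without PBS replicate 1 or 2, without a filter and in DESeq2 (adjusted p up to 0.172).

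Sulfated glycosaminoglycans draw in part on the same UDP-sugars. Of 11 tested enzymes that build them 7 rose and none fell, with a median of 0.51, and the counts were the same with library totals. The share changed, 63.6%, was near the 55.9% of all tested genes. EXT2, a heparan sulfate polymerase subunit, rose by 1.41 (SE 0.06, edgeR adjusted p = 8.15e-14). The chondroitin chain enzymes CHPF, CHPF2 and CHSY1 rose by 0.71, 0.70 and 0.69, with SEs of 0.06 to 0.07, and CSGALNACT2, which starts chondroitin chains, by 0.61 (SE 0.09). XYLT2, which starts both kinds of chain, rose by 0.51 (SE 0.09, edgeR adjusted p = 7.53e-05). CHPF was the most abundant of the group, at 43.3 mean FPKM in PBS and 63.8 in M5.

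**Figure D5:**
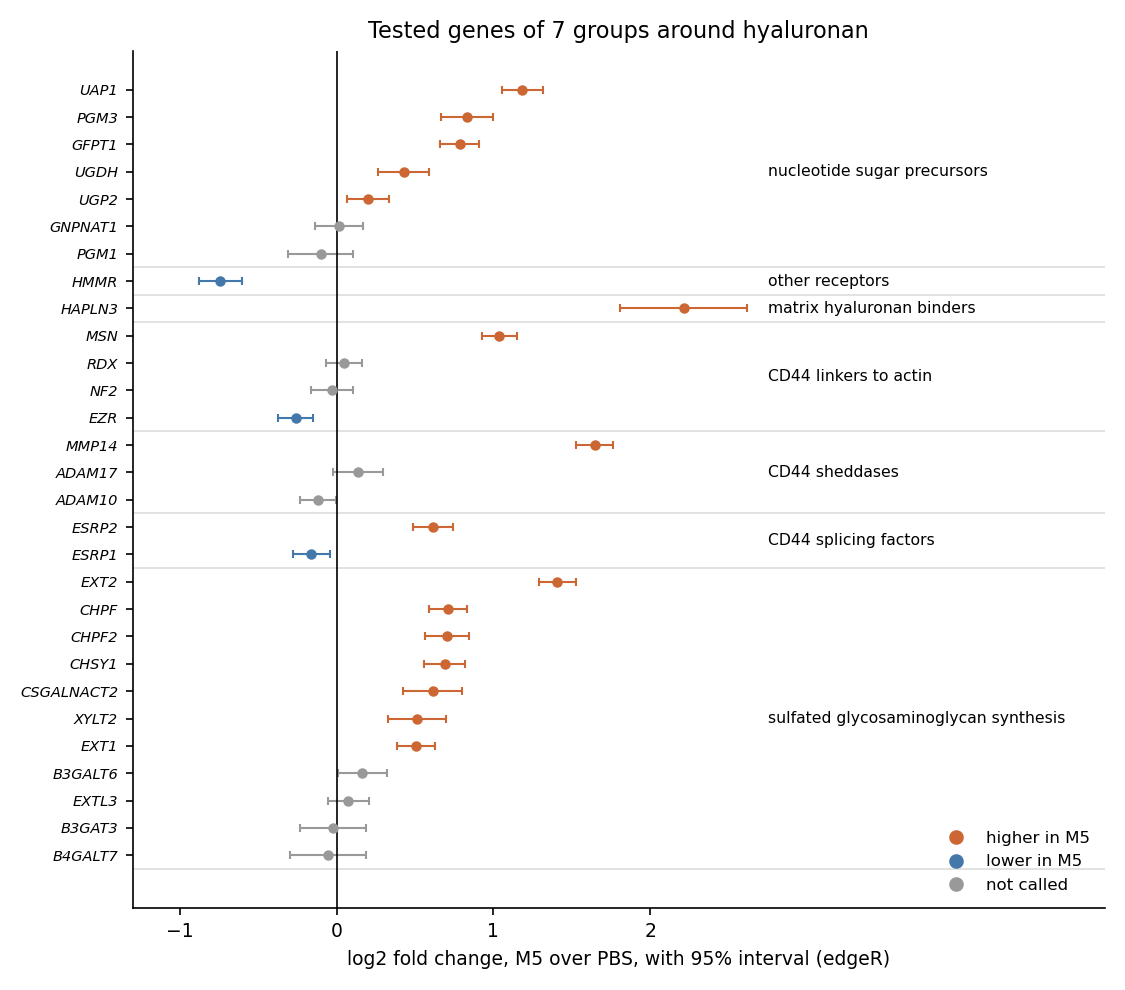
Log2 fold change of M5 over PBS with its 95% interval for the tested genes of 7 of the 8 groups (the lysosomal group is not drawn), from the edgeR fit, orange for higher, blue for lower and grey for not called. HAPLN3 and MMP14 lie farthest to the right at 2.21 and 1.65, and HMMR farthest to the left at -0.74.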

How the data were processed

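Per the file headers, each of the 4 deposited files gives a read count and an FPKM value per gene, for 27356 genes. HISAT2, HTSeq 0.13.5 and GRCh38 are named, with no roles, per the submitters' processing notes. No source used here gives the annotation release, the strand setting or the treatment of multiply aligned reads. The deposited FPKM follow from the deposited counts and 1 length per gene (largest deviation 3.1e-08 bp). The kit named in the labels' protocol does not mark strand.

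The members and gene lists were chosen with earlier results of these data known. Counts were tested with edgeR 4.0.16 (R 4.3.3; TMM, glmQLFit, glmQLFTest, two-sided) on genes with a mean of at least 1 FPKM, adjusted by Benjamini-Hochberg over 10809 genes; an adjusted p under 0.05 is called changed. TMM CPM divide counts by the scaled library total. SE is the log2 fold change over the square root of F. limma 3.58.1 and DESeq2 1.42.0 served as alternatives. The edgeR step was tested on simulated data in which few genes changed. With many genes changed here, that test does not check the scaling. All 10 members are named; of each list, up to 6 changed genes of largest absolute change and the most abundant gene are named. Any other gene of a list was picked with its values in view. Summing HYAL3 and NAA80 was chosen after seeing the data. Positions and exons are from GENCODE 29 on GRCh38. The result of 1 listed gene is not reported here.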

Additional observations from a re-analysis of the deposited data

How the results depend on the processing

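Every alternative left the count of changed hyaluronan genes between 5 and 7 of at most 8 tested, the count of changed pathway genes between 17 and 22 against 19, and the count over all genes between 4204 and 6664 against 6043. HAS2, HAS3, CEMIP, CEMIP2 and CD44 kept their direction and their call in all 15 alternatives, with log2 values of 2.81 to 3.94, 0.93 to 1.15, 3.68 to 4.06, 0.74 to 1.00 and 0.33 to 0.56. Leaving out 1 library at a time, where the other group alone supplies the spread, gave 5 to 6 changed members. HYAL1 was called in none of its 14 alternatives. HYAL2 passed as lower with library totals (-0.41), on log2(TPM + 1) (-0.42) and on log2(FPKM + 1), + 0.5 and + 0.1 (-0.33, -0.36 and -0.40). HYAL3 lost its call in 6 of 15 alternatives. Of all changed genes 51.5% were higher with TMM, 33.0% with library totals and 29.9% on log2(TPM + 1); of the changed members 6 of 6, 5 of 6 and 6 of 7 were. With the replicate number as a block, 6 members, 20 pathway genes and 6091 genes changed. The labels do not say that a number marks a shared batch, and the deviations of same-numbered libraries correlated at -0.013 across genes. This value cannot tell whether same-numbered libraries share a culture, day or batch. With 2 libraries a group and at most 182 counts per library, HYAL1 and HYAL3 have SEs of 0.17 and 0.22 on the log2 scale, the widest among the members.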

Other observations

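The genes whose log2 CPM, centred on its mean over the 4 libraries, lay nearest to that of each more abundant hyaluronan gene by Euclidean distance are given as a description, over 4 libraries that fall into 2 groups. Nearest to CEMIP were C3, the central complement component (distance 0.08, log2 fold change 3.98), PRR9 (3.95) and the gelatinase MMP9 (4.02). Nearest to HAS2 were SOCS1, a suppressor of cytokine signalling (distance 0.07), the antiviral gene RSAD2 (log2 fold change 3.87) and SERPINB2, an inhibitor of plasminogen activators (3.77). Nearest to HAS3 were CD47 (distance 0.01, log2 fold change 1.12), SLC8B1 (1.13) and LSR (1.12). Nearest to CEMIP2 were SHC1 (distance 0.03, 0.92), STAT6 (0.96) and CYBA (0.92), and nearest to CD44 were SKIL (distance 0.02, 0.51), RNF103 (0.52) and SLC11A2 (0.54).

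Around the HYAL genes on chromosome 3, 5 of 7 listed neighbours were tested. GNAI2, a G protein subunit, rose by 0.80 on the log2 scale (SE 0.06, edgeR adjusted p = 1.32e-09) and TUSC2 by 0.42, while NPRL2 fell by 0.49 (SE 0.17, edgeR adjusted p = 0.019) and IFRD2 by 0.26 (SE 0.06, edgeR adjusted p = 0.00205). RASSF1 did not pass (log2 value -0.07).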
